A study of Homo sapiens with 8 samples.

Results

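The genes described here are the peroxisome proliferator-activated receptor gamma axis and its fatty acid-binding proteins: PPARG, PPARA, PPARD, RXRA, PPARGC1B, FABP3, FABP4, FABP5, CD36 and ANGPTL4. They were chosen by gene symbol, 10 genes of the 78899 in the count table. Where a symbol had several entries the one with the most counts was to be taken. As 0 of the 10 had more than 1 Ensembl entry, no count decided between entries. The genes themselves were chosen with earlier results of these data known. The libraries came from microglia, the resident macrophages of the brain, made from the human H1 line, an established embryonic stem cell line, although the labels also call the cells iPSC-derived. H1 is a single line, so all libraries share 1 genome. The microglia carried a GFP label, were recovered by fluorescence-activated sorting 2 weeks after plating, and were sequenced in bulk. Mono-cultures (4 libraries) received IL-34 at 100 ng/mL and M-CSF at 10 ng/mL, both ligands of the CSF1 receptor. Tri-cultures (4 libraries) held the microglia with other cells, which the labels do not name, and received no exogenous cytokine. The added cytokines and the co-culture changed together and cannot be told apart. Each group had 1 library from each of batches 1 to 4, and library numbers below are batch numbers.

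PPARG, PPARA and PPARD are nuclear receptors that bind fatty acids and their derivatives, pair with a retinoid X receptor such as RXRA, and switch on genes of lipid uptake, storage and oxidation. Fatty acid-binding proteins are small cytosolic carriers that hold fatty acids in solution and can hand them to these receptors. CD36 brings long-chain fatty acids and oxidised lipoproteins into the cell. In macrophages PPARG is known for its part in lipid handling and in the response to IL-4, and FABP4 and CD36 are textbook genes under its control.

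FABP4 was 53.2-fold lower in tri-culture, PPARG 4.19-fold lower, FABP5 2.55-fold lower, CD36 1.94-fold lower and PPARA 1.82-fold lower. PPARD, RXRA, PPARGC1B and FABP3 did not pass the test, and ANGPTL4 was too low in counts to enter it. Levels are given in CPM (counts scaled to a common library size), as mean ± SD of 4 libraries, and differences as log2 fold change, tri-culture minus mono-culture, with the standard error. Adjusted p-values come from edgeR's quasi-likelihood test with Benjamini-Hochberg adjustment over all 16249 genes tested, at a threshold of 0.05. Of the 9 members tested, 5 were lower and 0 higher, where 13.0% of all genes tested were lower and 13.9% higher. The CPM of the groups did not overlap, with tri-culture lower, in the same 5 members, against 14.1% of all genes tested. Since the members were chosen with earlier results of these data known, these counts are no independent support.

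The start regions of 3 genes that were lower together are shown first, since the receptors act through a DNA half-site, AGGTCA, which is written in capitals. Each is the 250 bases before a RefSeq transcript start on GRCh38.p14, plus strand, 5′ to 3′. RefSeq windows were matched for 8 of the 10 genes, 20 windows in all, and the other members are FABP4 and FABP5.
PPARG, chr3:12287118-12287367: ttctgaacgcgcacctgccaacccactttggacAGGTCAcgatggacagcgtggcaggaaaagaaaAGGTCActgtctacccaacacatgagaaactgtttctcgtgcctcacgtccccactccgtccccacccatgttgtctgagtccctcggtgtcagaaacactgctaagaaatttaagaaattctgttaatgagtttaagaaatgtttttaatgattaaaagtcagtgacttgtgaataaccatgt
PPARG, chr3:12351167-12351416: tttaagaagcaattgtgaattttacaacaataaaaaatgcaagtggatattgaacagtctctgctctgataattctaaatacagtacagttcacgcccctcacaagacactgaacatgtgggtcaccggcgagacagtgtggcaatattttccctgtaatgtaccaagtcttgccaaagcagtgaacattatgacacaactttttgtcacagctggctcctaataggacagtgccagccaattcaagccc
CD36, chr7:80638266-80638515: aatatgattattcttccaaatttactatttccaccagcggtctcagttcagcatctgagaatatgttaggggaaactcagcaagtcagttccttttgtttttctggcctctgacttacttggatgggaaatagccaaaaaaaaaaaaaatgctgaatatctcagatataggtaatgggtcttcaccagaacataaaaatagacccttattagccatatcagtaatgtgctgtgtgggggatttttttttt
PPARA, chr22:46150276-46150525: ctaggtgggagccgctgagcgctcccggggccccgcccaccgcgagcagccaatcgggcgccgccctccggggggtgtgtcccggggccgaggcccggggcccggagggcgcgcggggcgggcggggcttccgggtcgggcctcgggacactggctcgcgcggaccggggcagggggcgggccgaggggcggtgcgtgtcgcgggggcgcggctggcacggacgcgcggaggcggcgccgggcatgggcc
The first PPARG window, upstream of the gene's most upstream start, held AGGTCA at 217 and 184 bases before the start. The half-site, searched on both strands, was found in 3 of the 20 windows of these genes, all of them PPARG windows, and in 4182 (12.02%) of all 34788 windows of this length. The other PPARG windows with a half-site overlap each other, share a single site and lie mostly in annotated exons. The full receptor element, a direct repeat of that half-site with 1 base between, stood in 0 of the 20 windows and in 0.0115% of all windows. With up to 1 mismatch it stood in 0 of the 20 windows and in 0.282% of all. The windows differ in base composition: the PPARA window printed has 84.4% G and C, the PPARG windows printed 44.8% and 41.6%, and the CD36 window 36.0%, where the median of all windows is 58.0%. A match describes these letters only.

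Among the receptors, PPARG (ENSG00000132170, chr3:12287368-12434356, plus strand, GRCh38) had 84.1, 84.8, 87.2 and 77.2 CPM in mono-culture libraries 1 to 4 and 16.9, 23.3, 21.1 and 18.3 CPM in tri-culture libraries 1 to 4. The lowest mono-culture library was far above the highest tri-culture library, and the spread within each group was small. The means were 83.3 ± 4.26 and 19.9 ± 2.88 CPM (SD, n = 4 libraries each), a log2 fold change of -2.07 ± 0.12 (95% interval -2.33 to -1.80, edgeR adjusted p = 1.4e-07). The fall was 4.99-, 3.64-, 4.12- and 4.22-fold in batches 1 to 4. Less RNA per cell and fewer cells with the RNA cannot be told apart in bulk libraries, here and for every gene below.

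PPARA (ENSG00000186951, chr22:46150521-46243756, plus strand), the receptor best known for fatty acid oxidation in liver, had 60.1, 48.8, 52.0 and 55.1 CPM in mono-culture against 28.2, 30.3, 28.0 and 32.6 CPM in tri-culture. Its groups did not overlap either, and the tri-culture libraries lay close together. The log2 fold change was -0.86 ± 0.11 (95% interval -1.10 to -0.62, edgeR adjusted p = 7.58e-05), with batch folds from 1.61 to 2.13. PPARD (ENSG00000112033, chr6:35342558-35428191, plus strand), the most widely expressed of the 3 receptors, had 46.2, 33.1, 38.3 and 44.0 CPM in mono-culture against 46.6, 32.0, 42.0 and 49.7 CPM in tri-culture. These ranges overlapped almost whole. Its log2 fold change was 0.07 ± 0.15 (95% interval -0.26 to 0.40, edgeR adjusted p = 0.781), and its sign turned when mono-culture library 2 (-0.02) or tri-culture library 4 (-0.01) was left out.

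Levels of different genes were compared on the authors' length-normalised signal, and those values carry no test. PPARG held 39.1%, 45.9%, 44.0% and 38.7% of the summed signal of the 3 PPAR genes in mono-culture and 14.7%, 22.9%, 18.9% and 14.6% in tri-culture. On this signal it was the largest of the 3 in every mono-culture library and the smallest in every tri-culture library. With counts per annotated exon length in its place, PPARG held 58.4% ± 3.85 of the sum in mono-culture and 27.4% ± 5.89 in tri-culture, and PPARA 12.9% ± 0.646 and 14.0% ± 1.23 (SD, n = 4), so PPARA was then the smallest in both cultures. PPARG lost share on both scales, while its place relative to PPARA in tri-culture reversed. PPARD held 29.5% ± 2.78 of the sum in mono-culture and 54.5% ± 6.08 in tri-culture, and PPARA 28.5% ± 0.883 and 27.8% ± 2.45 (SD, n = 4). The summed signal of the 3 receptors went from 45.5 ± 3.47 to 26.0 ± 1.98. The signal of PPARG was 1.20 to 1.75 times that of PPARD in mono-culture and 0.248 to 0.499 times in tri-culture.

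**Figure D1:**
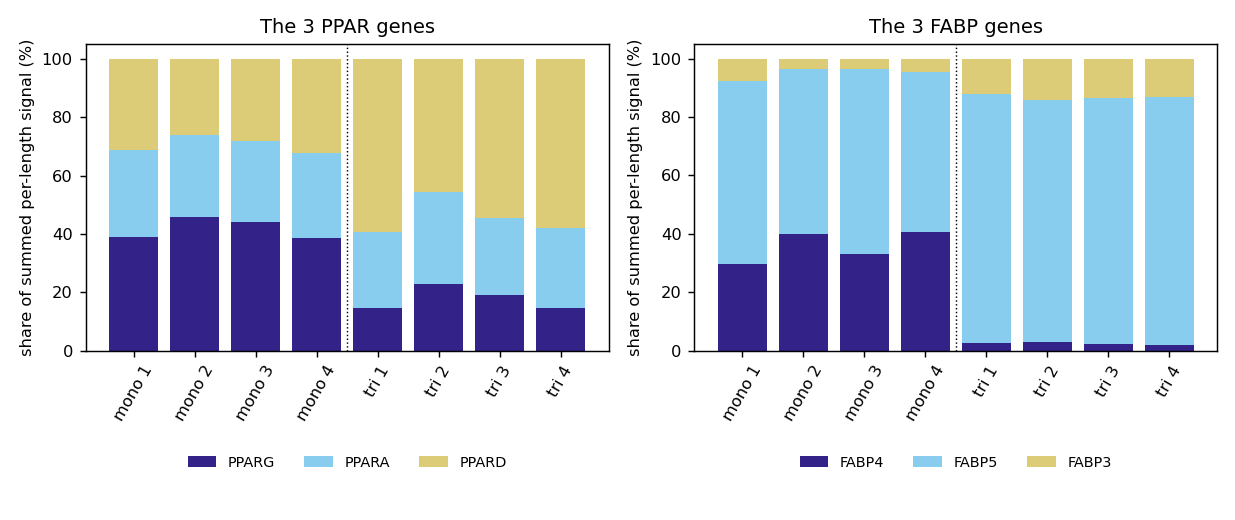
Stacked bars give each gene's share, in percent, of the summed per-length signal of the 3 PPAR genes (left) and of FABP3, FABP4 and FABP5 (right) in each of the 8 libraries, with a dotted line between the cultures. PPARG falls from 38.7% to 45.9% of the PPAR sum in mono-culture to 14.6% to 22.9% in tri-culture, and FABP4 from 29.8% to 40.7% of the FABP sum to 1.94% to 2.77%.

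The partner receptor RXRA (ENSG00000186350, chr9:134317098-134440585, plus strand) had 149, 156, 142 and 156 CPM in mono-culture against 133, 112, 145 and 148 CPM in tri-culture. Tri-culture libraries 3 and 4 lay within the mono-culture range. The log2 fold change was -0.17 ± 0.11 (95% interval -0.41 to 0.07, edgeR adjusted p = 0.31). RXRA signal stood at 0.99 ± 0.0888 times the summed PPAR signal in mono-culture and at 1.54 ± 0.105 times in tri-culture. PPARGC1B (ENSG00000155846, chr5:149730298-149855022, plus strand), a coactivator of nuclear receptors that promotes mitochondrial genes, had 49.7, 39.0, 53.3 and 51.6 CPM in mono-culture against 30.8, 34.3, 49.2 and 42.2 CPM in tri-culture. It was lower in 4 of 4 batch pairs, yet the groups overlapped, and the log2 fold change of -0.31 ± 0.16 did not pass (95% interval -0.65 to 0.03, edgeR adjusted p = 0.174).

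FABP4 (ENSG00000170323, chr8:81478419-81483263, minus strand), the adipocyte and macrophage fatty acid carrier, had 240, 605, 291 and 324 CPM in mono-culture against 5.6, 11.7, 6.35 and 3.53 CPM in tri-culture. Every mono-culture library was above every tri-culture library by a wide margin, and library 2 was the highest in both groups. The means were 365 ± 163 and 6.79 ± 3.46 CPM (SD, n = 4), a log2 fold change of -5.73 ± 0.39 (95% interval -6.58 to -4.89, edgeR adjusted p = 4.08e-07). The batch folds were 42.8, 51.8, 45.9 and 91.6. By size of fall it held rank 11 among the 7786 genes with a fold below 1, and PPARG held rank 264. By per-length signal FABP4 was rank 152 of all genes in mono-culture and rank 7641 in tri-culture.

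FABP5 (ENSG00000164687, chr8:81280363-81284777, plus strand), the related carrier of epidermis and macrophages, had 449, 759, 497 and 388 CPM in mono-culture against 165, 312, 207 and 137 CPM in tri-culture. The groups did not overlap, and both ran in the same batch order, with library 2 highest, then 3, 1 and 4. The log2 fold change was -1.35 ± 0.26 (95% interval -1.90 to -0.80, edgeR adjusted p = 0.00143). With the batch as a replicate block the standard error was 0.11 for FABP5 and 0.18 for FABP4. FABP5 has near-identical pseudogene copies, 16 of them in the table by symbol (GENCODE 29 names 13), and how the authors' counting split reads among them is not given. The most counted copy, FABP5P7, stood at 20.2% to 22.6% of FABP5 in every library. FABP5 and its copies summed to 637 ± 203 CPM in mono-culture against 249 ± 90.8 CPM in tri-culture, 2.56-fold lower against 2.55-fold for FABP5 alone. An antisense gene, AC009902.2, covers 4.53% of the FABP5 exon bases, and the use of strand in counting is not given in the sources used here.

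FABP3 (ENSG00000121769, chr1:31365625-31376850, minus strand), the carrier of heart and skeletal muscle, had 77.2, 69.0, 40.2 and 45.6 CPM in mono-culture against 33.4, 75.1, 46.5 and 30.5 CPM in tri-culture. It was lower in 2 of 4 batch pairs and the groups overlapped. The log2 fold change was -0.32 ± 0.27 (95% interval -0.92 to 0.27, edgeR adjusted p = 0.445). Without tri-culture library 2 it was -0.66 (edgeR adjusted p = 0.0545, where the alternatives ran from 0.0545 to 0.783). On the per-length signal the 3 carriers changed order in tri-culture: FABP4 went from 35.9% ± 5.33 of their sum to 2.40% ± 0.358, FABP5 from 59.3% ± 4.33 to 84.4% ± 0.925, and FABP3 from 4.84% ± 1.88 to 13.2% ± 0.809. FABP5 signal was 1.70 ± 0.374 times that of FABP4 in mono-culture and 35.8 ± 5.85 times in tri-culture (SD, n = 4). With counts per exon length these ratios were 1.01 ± 0.224 and 21.4 ± 3.5, so FABP4 and FABP5 were level in mono-culture, and the FABP3 share was 10.4% ± 3.97 and 30.1% ± 1.48. FABP4 and FABP5 lie 193.6 kb apart on chromosome 8 with 2 coding genes between them in GENCODE 29. PMP2, the myelin fatty acid-binding protein, had 4, 0, 0 and 0 counts in mono-culture and 7, 2, 8 and 3 in tri-culture, and FABP9 had 0 in all libraries.

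CD36 (ENSG00000135218, chr7:80369575-80679277, plus strand) had 2913, 2600, 1849 and 2271 CPM in mono-culture against 1162, 1419, 1278 and 1114 CPM in tri-culture. The groups did not overlap, and the gap was smallest in batch 3. The log2 fold change was -0.95 ± 0.16 (95% interval -1.31 to -0.60, edgeR adjusted p = 0.000731), and the batch folds were 2.51, 1.83, 1.45 and 2.04. ANGPTL4 (ENSG00000167772, chr19:8363289-8374373, plus strand), a secreted inhibitor of lipoprotein lipase and a classic PPAR target, had 4, 3, 0 and 1 counts in mono-culture and 14, 4, 6 and 11 in tri-culture. It was left out of the test by the filter on low counts. Pooled over its libraries, mono-culture stood at 0.0821 CPM and tri-culture at 0.4 CPM, a ratio of 4.87 (95% exact interval 2.22 to 12.1, counting error only). Mono-culture library 2 and tri-culture library 2 were at nearly the same level, so the groups overlapped.

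**Figure D2:**
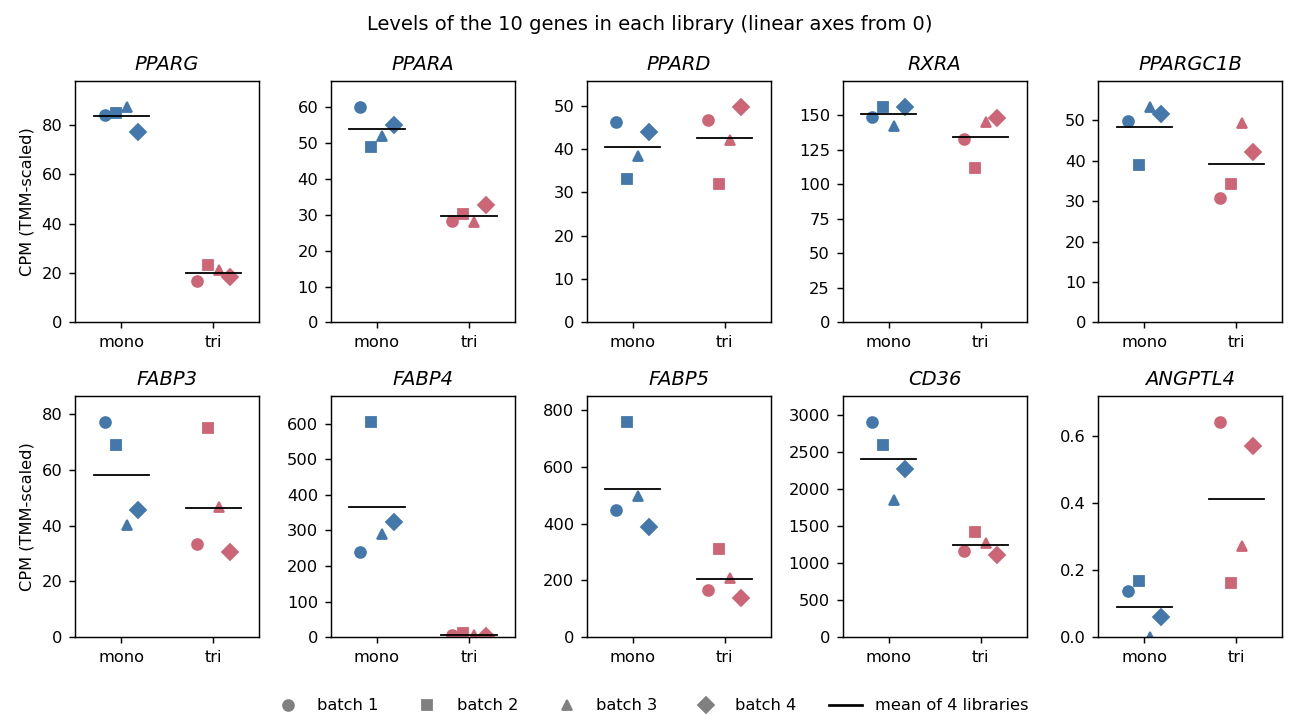
Each panel gives one gene's level in CPM on a linear axis from 0, with blue points for the 4 mono-culture libraries, red points for the 4 tri-culture libraries, a marker shape per batch and a line at the mean. PPARG, PPARA, FABP4, FABP5 and CD36 have no overlap between the groups, and the other 5 genes overlap.

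**Figure D3:**
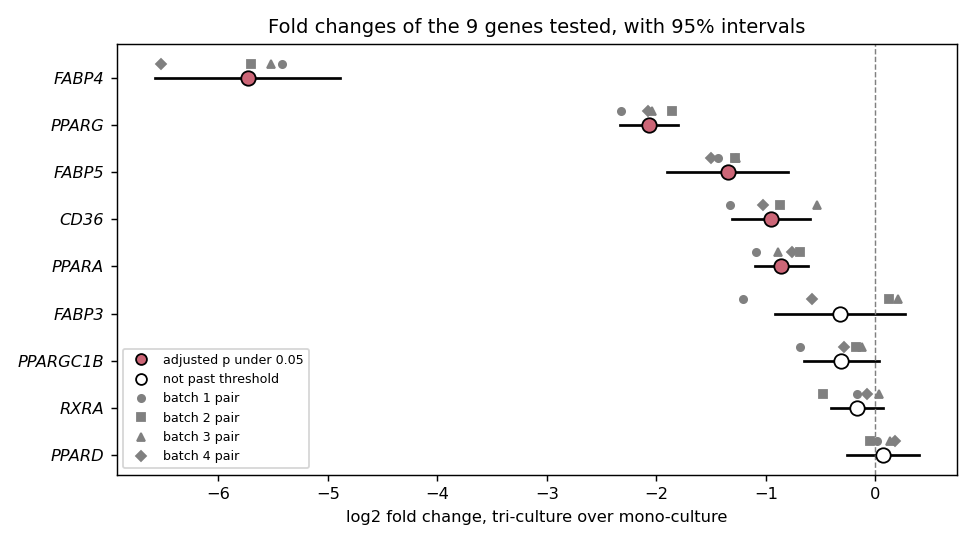
Large circles give the log2 fold change of the 9 genes tested, tri-culture over mono-culture, with the 95% interval as a line, filled where the adjusted p is under 0.05. Small grey markers give the log2 ratio of the 2 libraries of each batch. All 4 batch pairs lie below 0 for PPARG, PPARA, FABP4, FABP5, CD36 and PPARGC1B.

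In mono-culture the per-length signal put FABP5 first (983), then FABP4 (609), CD36 (597), FABP3 (77.0), RXRA (44.8), PPARG (19.0), PPARD (13.5), PPARGC1B (13.1), PPARA (13.0) and ANGPTL4 (0.128). The ranges of FABP5 and FABP4 overlapped, as did those of FABP4 and CD36, PPARD and PPARGC1B, and PPARGC1B and PPARA, and the other neighbours did not overlap. In tri-culture the order was FABP5 (390), CD36 (310), FABP3 (62.1), RXRA (40.2), PPARD (14.3), FABP4 (11.5), PPARGC1B (10.7), PPARA (7.20), PPARG (4.57) and ANGPTL4 (0.584). There the neighbours that overlapped were FABP5 and CD36, FABP3 and RXRA, PPARD and FABP4, and FABP4 and PPARGC1B. FABP5 and CD36 thus stayed among the most abundant messages, at signal ranks 88 and 157 of all genes in mono-culture and 229 and 300 in tri-culture. With counts per annotated exon length in place of the deposited signal, 4 of the 10 genes kept their rank in mono-culture and 5 in tri-culture. PPARG was the gene that moved most in tri-culture, from rank 9 to rank 7, above PPARGC1B and PPARA, and FABP5 and CD36 exchanged ranks 1 and 2. In mono-culture FABP4 and FABP5, RXRA and PPARG, and PPARGC1B and PPARA exchanged places.

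The calls of the members were the same under all 17 alternatives run, with 5 lower and 0 higher each time. The highest adjusted p over these was 4.02e-06 for PPARG, 0.000619 for PPARA, 0.000654 for FABP4, 0.00651 for FABP5 and 0.00346 for CD36.

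Genes with a profile over the 8 libraries most like that of PPARG were found among 10421 genes with a mean of at least 5 CPM, by the root mean square difference of log2 CPM, each gene centred on its own mean. They were CD109 (0.17), AFAP1L1 (0.18), ITSN1 (0.19), DUSP4 (0.20) and MACIR (0.21). CD109 is a membrane protein that binds TGF-beta, ITSN1 an endocytic scaffold and DUSP4 a phosphatase of MAP kinases, and their log2 fold changes ran from -1.88 (MACIR) to -2.37 (DUSP4). The 5 most like FABP4 were PLPP4 (0.50), HTR2B (0.51), RNF128 (0.59), BMP2 (0.60) and ECM1 (0.72), with log2 fold changes from -4.81 (RNF128) to -5.80 (ECM1). The measure of likeness includes the group difference, so fold changes near those of PPARG and FABP4 follow from the choice. HTR2B is a serotonin receptor and BMP2 a bone morphogenetic protein. With Pearson's r as the measure, 0 of the 5 names for PPARG and 3 of the 5 for FABP4 were shared, so the PPARG names depend on the measure.

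Of 26 partners and coregulators of the receptors, 24 were tested, 2 were higher and 5 lower, with a median log2 fold change of -0.16 where that of all genes tested was 0.02. KLF4, a factor of alternatively activated macrophages, fell from 5.97 ± 1.20 to 1.10 ± 0.18 CPM (5.40-fold, edgeR adjusted p = 1.43e-05). IRF4, a factor of IL-4 responses and of dendritic cells, rose from 6.88 ± 2.56 to 26.2 ± 6.44 CPM (3.83-fold, edgeR adjusted p = 6.5e-05). NR1H3, the oxysterol receptor LXR alpha, fell 2.17-fold (edgeR adjusted p = 0.0026), and STAT6, which carries the IL-4 signal, fell 1.39-fold (edgeR adjusted p = 0.0145). The 17 that did not pass had log2 fold changes from -0.35 (NCOA6) to 0.55 (CEBPD). Among them were the general corepressors and coactivators NCOR1, NCOA1, MED1 and CREBBP, from -0.21 to -0.06. These 6 genes were named after their values were seen.

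Of 14 other fatty acid and retinoid carriers, 8 were tested, 2 were higher and 3 lower, with a median of -0.11. FABP7, the carrier of radial glia and astrocytes, had 1, 0, 0 and 0 counts in mono-culture and 7.17, 17.4, 14.2 and 11.9 CPM in tri-culture. With 1 count against 1124 the pooled ratio was 1250 (95% exact interval 224 to 49422, counting error only). In the test across all genes FABP7 was 810-fold higher (edgeR adjusted p = 8.62e-08). Astrocyte markers moved with it: of 12 listed 11 were tested, 9 were higher and 0 lower, their summed level was 218 to 291 CPM in mono-culture against 607 to 735 CPM in tri-culture, and AQP4, HEPACAM and ALDH1L1 were at 0 in mono-culture. S100B was the most abundant of these markers, and it stood at 124 ± 22.5 CPM in mono-culture. Their part in the FABP7 result was not tested. RBP7, a cellular retinol-binding protein, fell from 12.4 ± 5.01 to 1.25 ± 0.435 CPM (9.80-fold, edgeR adjusted p = 8.25e-06). CRABP2, which carries retinoic acid to its receptor, fell 6.33-fold from a mean of 2.23 ± 0.837 CPM (edgeR adjusted p = 0.00525).

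A list of 32 PPAR target genes did not move one way: of 24 tested, 9 were higher and 4 lower, with a median of 0.15. It was put together from general knowledge of PPAR biology, and several of its genes answer to other regulators as well. The targets FABP4 and CD36, both lower, and ANGPTL4, not tested, are members and are not on this list. ACSL1, which activates fatty acids, fell from 238 ± 33.9 to 94.4 ± 6.83 CPM (2.52-fold, edgeR adjusted p = 4.82e-06). TGM2, a transglutaminase of alternatively activated macrophages, fell 4.22-fold (edgeR adjusted p = 8.28e-06). CD300LF, an inhibitory lipid receptor of myeloid cells, rose from 0.955 ± 0.609 to 27.0 ± 4.97 CPM (26.0-fold, edgeR adjusted p = 7.27e-07), and KLF10, an early-response factor, rose 3.58-fold (edgeR adjusted p = 1.17e-06). Other targets were named after their values were seen. Lower were the mannose receptor MRC1 (1149 ± 357 to 384 ± 99.3 CPM, edgeR adjusted p = 0.000311) and the lipid droplet coat protein PLIN2 (309 ± 56.3 to 145 ± 39.1 CPM, edgeR adjusted p = 0.000704). Higher were PDK4, which restrains glucose oxidation (67.7 ± 20.2 to 188 ± 13.8 CPM, edgeR adjusted p = 3.67e-05), and CPT1A, the gate of mitochondrial fatty acid entry (22.1 ± 7.06 to 65.6 ± 6.38 CPM, edgeR adjusted p = 4.41e-05). SLC25A20, the carnitine carrier of the inner membrane, was 2.02-fold higher and the sterol exporter ABCG1 1.60-fold higher, while LPL and UCP2 did not pass.

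Of 22 further genes of fatty acid uptake and activation, 15 were tested, 1 was higher and 7 lower, with a median of -0.35. The gene that rose was FFAR4, the cell surface receptor for long-chain fatty acids, from 2.43 ± 0.22 to 39.2 ± 2.54 CPM (16.2-fold, edgeR adjusted p = 3.6e-09). The scavenger receptor MSR1 fell from 652 ± 86.5 to 186 ± 56.9 CPM (3.51-fold, edgeR adjusted p = 1.65e-05). The acyl-CoA synthetases ACSL3 and ACSL5 fell 1.72-fold and 1.80-fold (edgeR adjusted p = 0.000221 and 0.000487). Of the membrane transporters SLC27A1, SLC27A3, SLC27A4 and SLC27A5, named after their values were seen, 0 passed. SLC27A2 and SLC27A6 were left out by the filter on low counts. SLC27A2 had 48 counts in mono-culture and 7 in tri-culture, and SLC27A6 had 0 and 1.

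Of 20 genes of lipid droplet and triglyceride turnover, 16 were tested, 1 was higher and 6 lower, with a median of -0.32. MGLL, the lipase of monoacylglycerols, fell from 172 ± 14.2 to 32.4 ± 4.47 CPM (5.30-fold, edgeR adjusted p = 4.84e-08). PNPLA3, a droplet-bound lipase, fell from 20.3 ± 7.18 to 2.75 ± 0.619 CPM (7.36-fold, edgeR adjusted p = 4.9e-06). The phosphatidate phosphatases moved in opposite directions: LPIN1 fell 2.06-fold and LPIN2 rose 1.86-fold (edgeR adjusted p = 0.000319 and 0.000163). Fatty acid oxidation genes outside the target list numbered 30, of which 27 were tested. Of these, with a median of 0.01, 1 was higher and 2 lower, against 13.9% and 13.0% of all genes tested. The lower ones were ECI2, which moves double bonds for oxidation (1.48-fold, edgeR adjusted p = 0.0148), and ACAD9 (1.23-fold, edgeR adjusted p = 0.0481). The higher one was CROT, the peroxisomal carnitine octanoyltransferase (1.58-fold, edgeR adjusted p = 0.018). Under the 17 alternatives the counts of oxidation genes ran from 0 to 4 higher and from 0 to 3 lower. MLYCD, which breaks down malonyl-CoA, had a log2 fold change of 0.62 and did not pass.

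Over the 6 pathway lists 43 calls were made, and 31 of them held under all 17 alternatives. The 12 that were lost under at least 1 were STAT6, NR1H2, CITED2, CEBPA, DBI, LIPA, ACSL4, ECI2, CROT, ACAD9, SOAT1 and NCEH1, whose highest adjusted p ran from 0.054 (ECI2) to 0.199 (ACAD9).

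**Figure D4:**
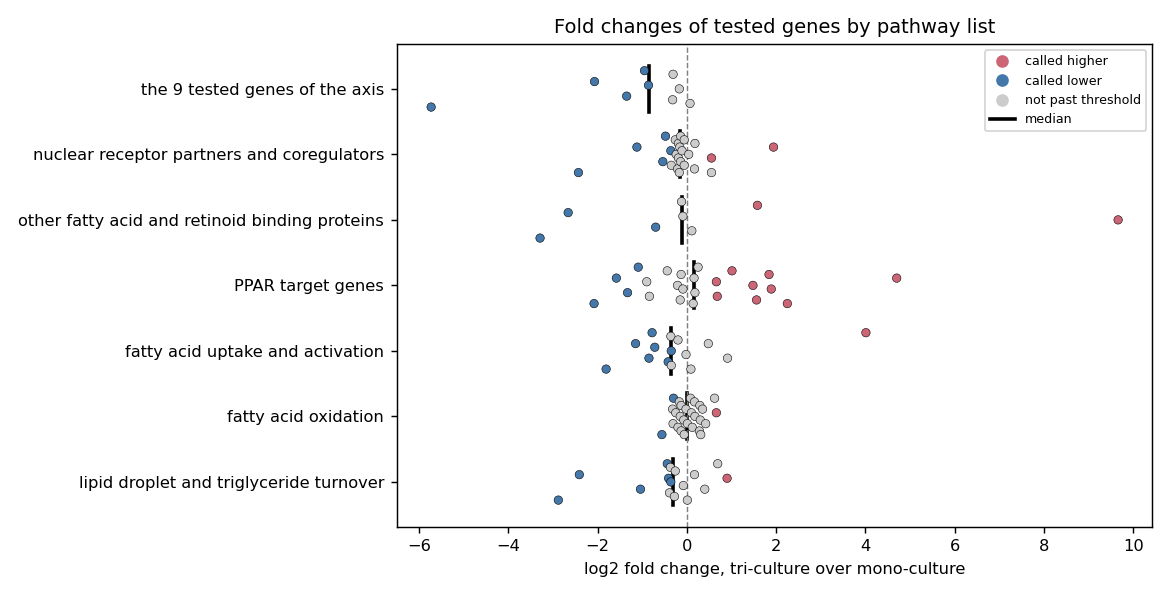
Each point is one tested gene's log2 fold change, tri-culture over mono-culture, in rows for the 9 tested genes of the axis and for the 6 pathway lists. Red points passed the threshold and were higher, blue points passed and were lower, grey points did not pass, and the black bar is the row's median. FABP7 stands at the far right of the binding protein row, and the oxidation row lies close to 0.

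The libraries held 17037481 to 33363972 counts. All 14 microglia and macrophage markers were tested, with a summed level of 5388 to 6637 CPM in mono-culture against 7183 to 8797 CPM in tri-culture, 5 higher and 1 lower. CSF1R was the most abundant. CD68, named after its value was seen, stood under 1 CPM in both groups, with 60 counts in mono-culture and 29 in tri-culture. How the counting handled overlapping genes is not given, and whether CD68 message was low or lost in counting was not tested. PPARG and FABP4 are also high in adipocytes. Of the 9 adipocyte markers 1 was tested, with 0 higher and 0 lower. ADIPOQ, LEP, CIDEC, AQP7, CIDEA and PCK1 were at 0 in all 8 libraries. The 9 markers summed to 0.222 to 0.865 CPM in mono-culture and 0.897 to 2.08 CPM in tri-culture. Capillary endothelium also carries FABP4. Its 10 markers summed to 315 to 417 CPM in mono-culture against 466 to 577 CPM in tri-culture, most of it PECAM1, which leukocytes share. Of the 5 tested, PECAM1 was higher and EGFL7, named after its value was seen, was lower, at 67.6 ± 19.8 CPM in mono-culture against 19.0 ± 4.74 CPM in tri-culture (3.56-fold, edgeR adjusted p = 4.6e-05). Among the more specific markers, ERG was at 0 in mono-culture and EMCN at 0 in tri-culture. Each of them had only 1 count in the other culture. The rest, named after their values were seen, were present in both. VWF, CDH5 and KDR did not pass, with 249, 333 and 358 mono-culture counts against 174, 401 and 278 tri-culture counts. TEK, CLDN5 and ESAM were left out by the filter, with 2, 6 and 13 mono-culture counts against 53, 2 and 14. Of the 12 dendritic cell markers 9 were tested, 6 were higher and 0 lower (79.8 to 106 and 364 to 534 CPM), with CLEC10A the most abundant in tri-culture, FLT3 at 0 in mono-culture and XCR1 at 0 in tri-culture. Of the 12 neuron markers 6 were tested, 4 were higher and 1 lower (25.1 to 47.8 and 30.4 to 55.0 CPM). GAP43, STMN2, SNAP25, DCX, SLC17A6 and GAD1 were at 0 in mono-culture. SYT1, the most abundant in mono-culture, was the lower one, at 15.7 ± 6.21 CPM against 4.00 ± 1.37 CPM in tri-culture (3.91-fold, edgeR adjusted p = 0.000612). ELAVL4, the most abundant in tri-culture, was among the higher ones. The part of adipocyte, endothelial, dendritic, astrocyte, neuron and mesenchymal markers in the falls of PPARG, PPARA, FABP4, FABP5 and CD36 was not tested.

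Of the 10 mesenchymal markers 6 were tested, 2 were higher and 0 lower, with COL3A1 the most abundant in tri-culture and COL1A2 in mono-culture. COL1A1, DCN, LUM and PDGFRB, named after their values were seen, were left out by the filter. They had 17, 13, 13 and 5 counts in mono-culture against 1771, 2442, 1375 and 84 in tri-culture. The 10 markers summed to 17.6 to 37.3 CPM in mono-culture against 376, 20.0, 379 and 136 CPM in tri-culture libraries 1 to 4. Library 2, the one at the mono-culture level, was the highest of the tri-culture libraries for PPARG, FABP3, FABP4, FABP5 and CD36. Tri-culture library 4, with the next lowest sum, was the lowest for FABP3, FABP4, FABP5 and CD36, and library 1 was the lowest for PPARG. These genes thus did not follow the order of the sums over the tri-culture libraries. The other members went otherwise: PPARA, PPARD and RXRA were highest in library 4, PPARGC1B in library 3 and ANGPTL4 in library 1. PPARD, RXRA and ANGPTL4 were lowest in library 2. Mono-culture library 2, with a mesenchymal sum of 19.4 CPM, was also the highest of its group for FABP4 and FABP5. In tri-culture, batch 2 and the lowest mesenchymal sum fell on the same library and cannot be told apart. In mono-culture the lowest sum, 17.6 CPM, was that of library 3. Without tri-culture library 2 the log2 fold change was -2.15 for PPARG, -6.14 for FABP4, -1.63 for FABP5, -1.03 for CD36 and -0.66 for FABP3. Since these are the values of the tri-culture libraries with the higher mesenchymal sums, they do not bear on the part of such cells.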

How the data were processed

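Total RNA of GFP-labelled, sorted microglia from 4 mono-culture and 4 tri-culture batches was sequenced. The deposited counts are whole reads per Ensembl gene. The submitters' processing notes name HISAT2 2.1.0, featureCounts 2.12.3 and the build GRCh38. Which annotation was used, whether strand was used and how overlapping genes were handled is not given in the sources used here. The other deposited table, which the authors named TPM, holds length-normalised signal values whose totals per library ran from 0.866 to 1.139 of the fixed sum of plain TPM, so a further scaling was applied that no source records. It served only to compare levels between genes and as an alternative to the counts.

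Symbols were matched to 42163 of 78899 Ensembl entries, and coordinates come from GENCODE 29 on GRCh38. Counts were filtered with filterByExpr (minimum count 10, minimum total count 15), scaled with TMM, and fitted by group with edgeR 4.0.16 (R 4.3.3, robust quasi-likelihood test), with Benjamini-Hochberg adjusted p under 0.05 as the threshold. Each standard error was approximated from the fold change and its F statistic. The test was tried on simulated data first.

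The members and lists were chosen with earlier results of these data known, so their calls are no independent support. Named genes were all members, up to 4 genes of each pathway list with the smallest adjusted p, the most abundant and the 0-count markers, and 5 genes each most like PPARG and FABP4. Genes named outside this rule were picked after their values were seen, and a gene that the rule names is not reported here. Gene lists carried no set test.

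The labels' batch number pairs the libraries, whose deviations from their group mean correlated at 0.185, 0.126, 0.264 and 0.0796 within batches 1 to 4. Each batch holds 1 library per group, so within-batch values are ratios with no test. Replicates differed by more than sampling noise (9.21 to 65.1 chi-square units per degree of freedom), and none was counted as a repeat. The p-values cover batch-to-batch spread within this 1 line. Alternatives were DESeq2 1.42.0 and its size factors, library size only, upper quartile factors, 2 other filters, the replicate block, limma-trend (limma 3.58.1) on log2 of the deposited signal plus a pseudocount of 0.1 or 1, and leaving out each library.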

Additional observations from a re-analysis of the deposited data

Results flagged for a closer look

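In 88 groups of 4 libraries looked at, 5 had 1 library far from the other 3 by Dixon's ratio at the 95% level, and chance flags about 1 group in 20. CD109 stood at 140.0 CPM in mono-culture library 1 and at 176 to 182 CPM in the others. AFAP1L1 stood at 35.9 CPM in mono-culture library 4 and at 42.4 to 43.3 CPM in the others. PLPP4 stood at 1.47 CPM in tri-culture library 2 and at 0.459 to 0.589 CPM in the others. FABP7 stood at 0.0342 CPM in mono-culture library 1, which is 1 count, and at 0 in the others. RBP7 stood at 19.9 CPM in mono-culture library 2 and at 8.97 to 10.6 CPM in the others. No member of the PPARG axis had such a library.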

How the results depend on the processing

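The 5 member calls kept their direction and their side of the threshold under all 17 alternatives. PPARD, which was never called, reversed sign without mono-culture library 2 (-0.02) and without tri-culture library 4 (-0.01), within a range of -0.02 to 0.19 over single libraries left out. With the batch as a replicate block, 2370 genes were higher and 2363 lower, against 2261 and 2112 without it, and no member call changed. Scaling by library size only gave 2829 higher and 1663 lower, so the share of calls that were higher was 63.0% against 51.7%, and the median over all genes was 0.12 against 0.02 on the log2 scale. ANGPTL4 entered the test only with no filter on low counts, with a log2 fold change of 2.15 and an edgeR adjusted p of 0.091. Its 43 counts limit what can be said of it. With counts per exon length in place of the deposited signal, the PPARG share of the PPAR sum still dropped, while the tri-culture order of PPARG and PPARA reversed.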
